A study of Mus musculus with 27 samples.

Results

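Cytosolic ribosomal protein genes encode the proteins of the ribosomes that translate nuclear mRNAs. They were taken here as the protein-coding genes whose symbol is Rpl (large subunit) or Rps (small subunit) with a number and at most 1 further letter, together with Rplp0, Rplp1, Rplp2 and Rpsa. The rule found 80 members among the 43346 genes of the table, 49 of the large and 31 of the small subunit. It matched 82 symbols, of which Rpl6l and Rps4l are annotated as pseudogenes and were left out. RNA was measured in whole lacrimal glands, the glands that secrete the watery part of tears, of 27 female BALB/c mice aged 8 to 10 weeks by the labels, with 3 mice in each of 9 groups. The injured glands had received 1 µg of the inflammatory cytokine IL-1α and were taken daily up to day 5 and again on days 7 and 14, and the controls were saline-injected glands of day 14 and uninjured glands (day 0). Each mouse gave 1 library, and the study names no transgene or deletion in any group. Day 7 replicate 2 has no values, which leaves 26 libraries. The fit used 23 of them, with 2 at day 2 (not replicate 3), 2 at day 4 (not replicate 1), 1 at day 7 (replicate 3) and 3 in every other group. The libraries that were not used are those the study set aside as outliers. The 26 libraries held 9.48 to 13.1 M estimated counts, of which the members took 96188 to 239395. The 3 libraries of day 3 stood apart in a gene that is no member, Zhx2, with 7.43, 10.01 and 8.16 units, where the others had 72.9 to 133. What set the mice of day 3 apart was not tested, and this limit holds for every comparison with day 3 below.

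A ribosome needs its proteins in fixed proportions, and in mammals most of them are each encoded by 1 active gene. The mRNAs begin with a run of pyrimidines, the terminal oligopyrimidine or TOP element, through which the kinase mTORC1 and the protein LARP1 set how many of them are translated. A few members have a second gene, and some of the proteins made from these pairs replace each other in the ribosome. Secretory acinar cells, the main cells of the lacrimal gland, are rich in ribosomes.

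The TOP element was looked for at the annotated start sites, which may differ from the starts used in these glands. RefSeq promoters (GRCm38.p6) were found for 60 of the 80 members, and in 13 of them (21.7%) a C stood at the annotated start and at least 4 pyrimidines followed it without a break. The same held for 3.01% of all 27025 genes with a promoter. A run of at least 8 pyrimidines within 25 bases of the start was found in 53.3% of the members and 22.3% of all genes. The letters CCGGAAGT, a site of the ETS family of factors, stood on either strand of the 300 bases in 12 of the 60 members and in 4.31% of all genes. The starts of 6 genes named in the results are shown. A run of pyrimidines from the annotated start is in capitals where there was one. Each is given with 10 bases before the annotated start and 20 from it. All of the 6 but Rps27l had such a run. They are not typical, since only 13 of the 60 members had one. Rplp0, Rps19, Rpl22 and Rpl4, which are also named in the results, had none at their annotated starts. Rps27l had no such run at either of its annotated starts, and its paralog Rps27 had 7. The starts used in these glands were not measured, so a missing run does not show that an mRNA lacks the element.
Rps18 (chr17:33955646-33955675, minus strand): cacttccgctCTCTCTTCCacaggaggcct
Rpl28 (chr7:4792955-4792984, plus strand): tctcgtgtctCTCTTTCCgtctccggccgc
Rps6 (chr4:86857348-86857377, minus strand): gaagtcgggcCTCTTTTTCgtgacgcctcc
Rplp2 (chr7:141447641-141447670, plus strand): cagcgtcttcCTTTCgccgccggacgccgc
Rps27 (chr3:90213629-90213658, minus strand): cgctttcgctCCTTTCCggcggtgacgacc
Rps27l (chr9:66946076-66946105, plus strand): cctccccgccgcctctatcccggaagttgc

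The reads of many members could belong to other places in the genome as well. Ribosomal protein mRNAs have left large numbers of processed copies in mammalian genomes. Of the 80 members 70 had at least 1 copy in the annotation that was at least 95% identical over at least 50% of the shorter transcript, 460 copies in all, and 426 of these had a value above 0. For 15 members the copies held 50% or more of the value summed over gene and copies, for 12 they held 10 to 50% and for 52 under 10%. Rpl10l, a testis-expressed paralog of Rpl10, was at 0 in every library. Rps27 is the extreme case. It had 0 to 11.6 units, and its copy Rps27rt on chromosome 9 had 1367 to 2626. Their first 90 coding bases are shown because a read from them cannot be given to either of these 2 genes, while the paralog Rps27l can be told from both. Capitals mark the bases that differ from Rps27, which number 0 in Rps27rt and 24 in Rps27l (GENCODE, GRCm38).
Rps27 (chromosome 3): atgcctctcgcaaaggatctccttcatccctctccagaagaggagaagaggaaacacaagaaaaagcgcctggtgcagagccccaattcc
Rps27rt (chromosome 9): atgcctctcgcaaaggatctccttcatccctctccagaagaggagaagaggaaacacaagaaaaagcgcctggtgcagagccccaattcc
Rps27l (chromosome 9): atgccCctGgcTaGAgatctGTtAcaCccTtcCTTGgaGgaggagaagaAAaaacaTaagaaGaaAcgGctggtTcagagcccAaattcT

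**Figure D1:**
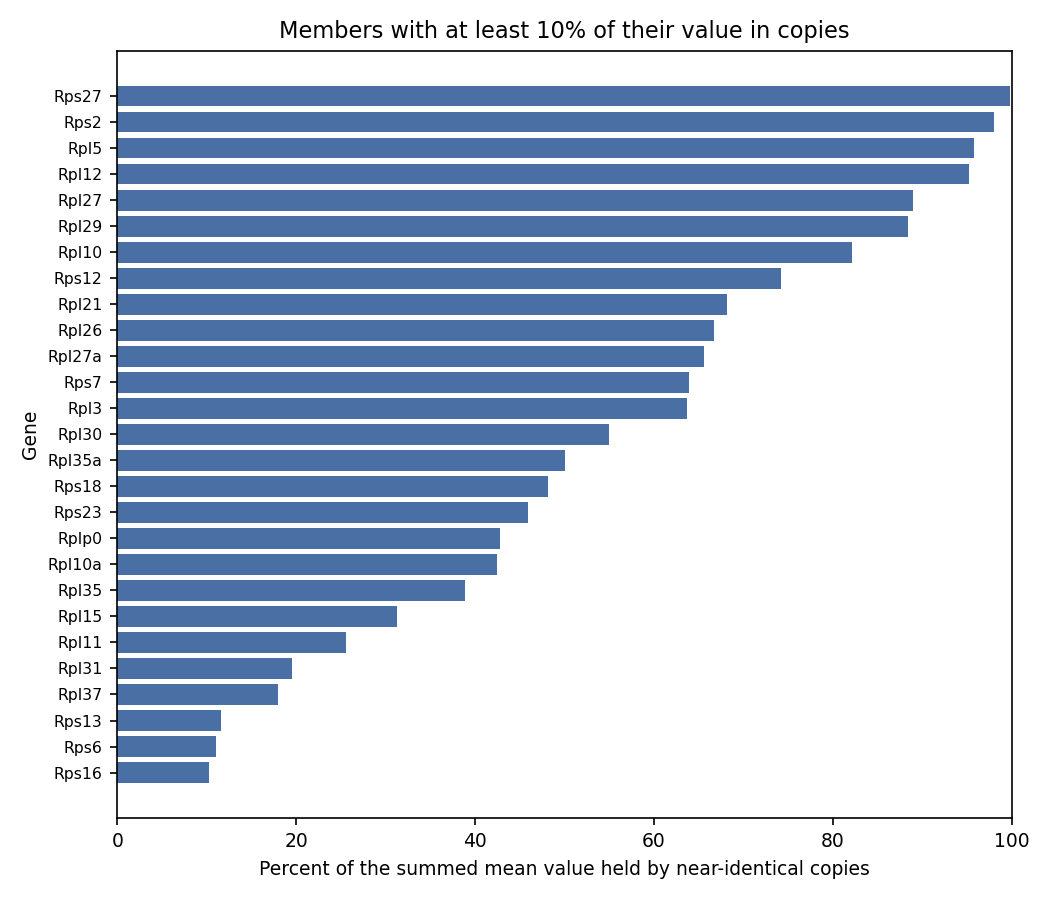
Percent of the summed mean value of gene and near-identical copies that the copies held (horizontal axis, 26 libraries), for the 27 members at 10% or more (vertical axis). The share was 99.7% for Rps27, 98.0% for Rps2, 95.7% for Rpl5, 95.2% for Rpl12 and 89.0% for Rpl27, and a value listed under such a symbol is a small part of the reads of its mRNA.

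The value of a gene in the table is an estimated read count divided by 1 factor per library, and this factor sets the typical gene to the same level in every library. Differences below are therefore relative to the median gene unless another scale is named, and are log2 differences of value + 1. Per kilobase of transcript the highest members of day 0 were Rpl41 (8885), Rplp1 (8699) and Rpl32 (7109) of the large subunit and Rps4x (5033), Rps29 (4976) and Rps25 (4614) of the small one. Of the 80 members 77 passed the filter of 10 units in at least 2 libraries. Rpl10l, Rpl3l and Rps27 did not. The ratio of the summed large to the summed small subunit members was 1.41 to 1.49 in the 23 libraries, a narrow range.

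Which way the members moved as a set depended on what they were measured against. Summed over the 80 members, the value was 112161 ± 2530 on day 5 (SD, n = 3), against 155026 ± 26100 on day 0 (SD, n = 3). The glands of day 5 held 114688, 112161 and 109635, and the 3 of day 0 held 185032, 138094 and 141953. The groups did not overlap, and day 0 replicate 1 stood apart as the highest of the 26 libraries. As a share of the library total the order was the opposite, with 1.18% ± 0.063 on day 5 and 0.932% ± 0.020 on day 0. The makeup of the totals differed too, and the 10 most abundant genes of day 0 took 62.3 to 63.8% of the total on day 5 and 70.8 to 75.3% on day 0. When the 100 most abundant genes were taken out of the total, the members made up 4.48% ± 0.10 of the remainder on day 5, against 5.64% ± 0.78 on day 0, again without overlap.

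The share of the library total was highest early. It was 0.932% ± 0.020 on day 0, 1.93% ± 0.15 on day 1, 1.84% ± 0.018 on day 2 (n = 2), 1.44% ± 0.28 on day 3, 1.28% ± 0.14 on day 4 (n = 2), 1.18% ± 0.063 on day 5, 1.11% in the single library of day 7 and 0.911% ± 0.022 on day 14 (SD, n = 3 where not given). The saline glands had 0.964% ± 0.099. On day 1 the 10 most abundant genes took 53.8 to 54.3% of the total, so the 2.07-fold share of the members stood beside a smaller share of the most abundant genes. Scaled to the totals, the median gene of the whole table was also higher than on day 0, by 1.18 (log2) on day 1, 0.90 on day 2, 0.69 on day 3, 0.73 on day 4, 0.78 on day 5 and 0.23 on day 14. Set against these shifts, the members' median lay 0.10 below the median gene on day 1, 0.09 above it on day 2, 0.08 below on day 3, 0.27 below on day 4, 0.43 below on day 5 and 0.26 below on day 14. In bulk tissue, fewer cells that hold much of these mRNAs and less of them per cell cannot be told apart.

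**Figure D2:**
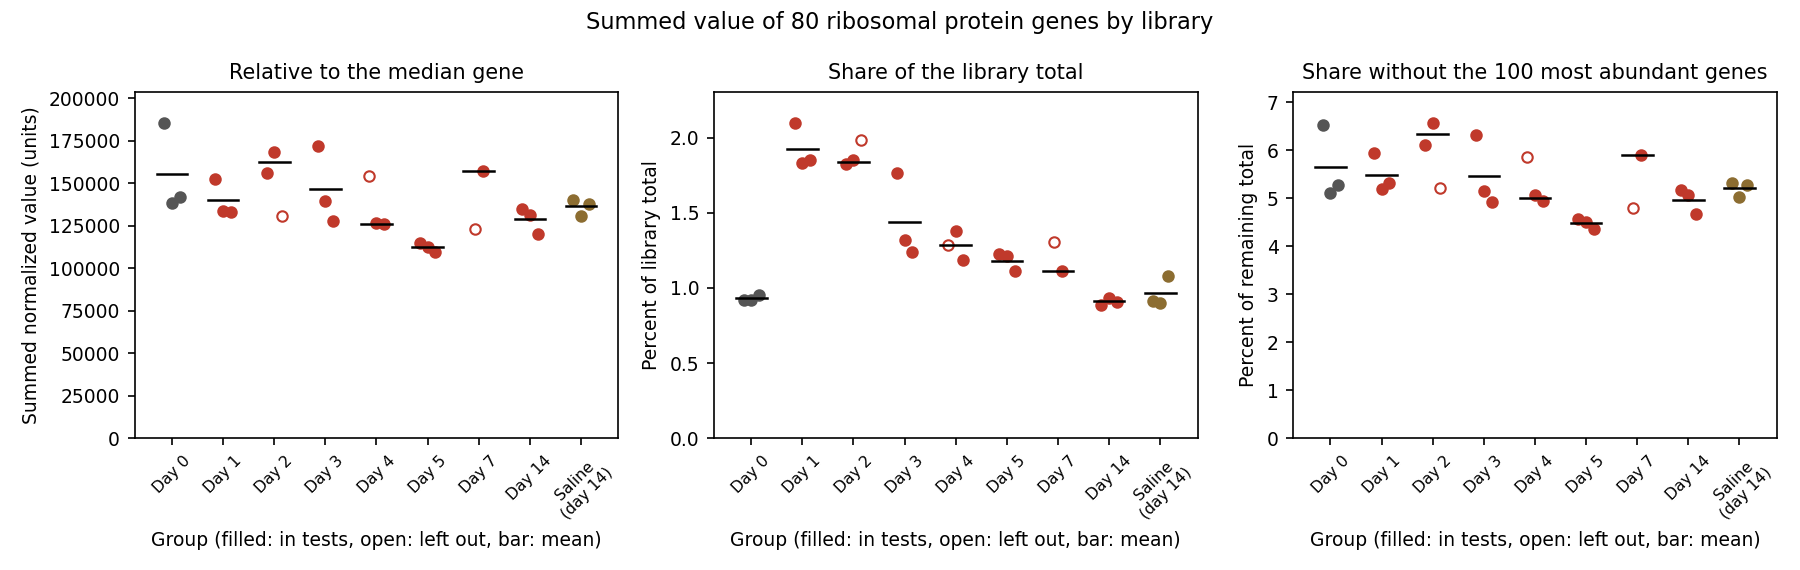
Summed value of the 80 members in each library (points; open points are libraries left out of the tests, bars are means of the others), in normalized units (left), as percent of the library total (middle) and as percent of the total without the 100 most abundant genes (right), by group. Day 5 was below day 0 on the left (112161 against 155026) and on the right (4.48 against 5.64%) and above it in the middle (1.18 against 0.932%).

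On day 5 nearly the whole set was lower than on day 0. Of the 77 members tested 63 fell and 1 rose (limma, adjusted p of at most 0.05 over 13762 genes), where 12.9% of all genes tested fell and 15.9% rose. The 1 counted as higher on days 1, 2 and 5 is Rpl39l, a gene of a few reads that entered the test only through glands of days 1 and 2 in which it was high, so nothing is read from its calls. The median member was at -0.44 (log2), or 73.6% of its day 0 level, with an interquartile range of -0.52 to -0.37. The median of all genes tested was 0.01. With the libraries scaled to totals the direction turned, and 59 members were higher and 0 lower, where 79.5% of all genes were higher. With totals that leave out the 100 most abundant genes 43 were lower and 1 higher, where 6.32% and 20.5% of all genes were. Without day 0 replicate 1 the count was 33 lower and 0 higher, and the median was -0.31. For this and all later fits that left out a library the share of all genes is not given. Their counts show only how far the calls of members depended on that library.

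Members of both subunits fell, 39 of 47 in the large and 24 of 30 in the small subunit. Rpl4, a large subunit protein that lines the exit tunnel, had 4739, 4775 and 4777 units on day 5, against 9066, 6726 and 7201 on day 0. Its difference was -0.67 ± 0.11 (SE), adjusted p = 0.000158 (limma), and scaled to totals it was 0.12 with adjusted p = 0.319. Rpl32 had 2290, 2356 and 2270 units, against 4358, 3241 and 3427 on day 0 (-0.66 ± 0.11, adjusted p = 0.00018 by limma). In both genes the 3 glands of day 5 lay below every gland of day 0 and close to each other. Rps27l, a paralog of Rps27 whose gene is a known target of p53, had 1086, 1043 and 1014 units, against 2113, 1462 and 1529 on day 0 (-0.68 ± 0.12, adjusted p = 0.000287 by limma). Rpl27 was listed lowest of all at -0.71, but 89.0% of its value lay in copies, and with them its difference was between the others: 1095, 1057 and 1042 units on day 5, against 1709, 1254 and 1382 on day 0.

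The most abundant members by length were also lower on day 5, relative to the median gene. Rpl41, the smallest ribosomal protein, had 3046, 3021 and 2877 units on day 5, against 4719, 3353 and 3577 on day 0, without overlap. Rps4x, the X-linked gene of a small subunit protein, had 3747, 3840 and 3797 units on day 5, against 5864, 4439 and 4417 on day 0. Rps25 had 1731, 1810 and 1801 units, against 3263, 2248 and 2475 on day 0. These groups did not overlap either, and the tests gave adjusted p of 0.0272 for Rpl41, 0.0211 for Rps4x and 0.00261 for Rps25 (limma). Rps29 had 1577, 1505 and 1399 units on day 5, against 2296, 1684 and 1842 on day 0 (adjusted p = 0.0194 by limma).

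The 13 members that passed no test on day 5 ran from -0.59 (Rps12) to -0.02 (Rps2). With copies added Rps12, Rpl5, Rpl3, Rpl29, Rpl10 and Rpl12 passed as lower. The 3 highest differences were those of Rpl39l, a paralog described further on, Rps2 (-0.02) and Rpl12 (-0.07), and for the last pair 98.0% and 95.2% of the value lay in copies. Rps2 encodes a protein near the mRNA entry of the small subunit, and with its copies it had 2067, 2253 and 2113 units on day 5, against 1918, 2142 and 1966 on day 0, 0.10 on the log2 scale (adjusted p = 0.509 by limma). Rpl12, a protein of the base of the stalk, had 2680, 2676 and 2606 units with its copies, against 4098, 3319 and 3246 on day 0. With copies added to every member 70 of 78 were lower and 1 higher, where 13% of all genes were lower.

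**Figure D3:**
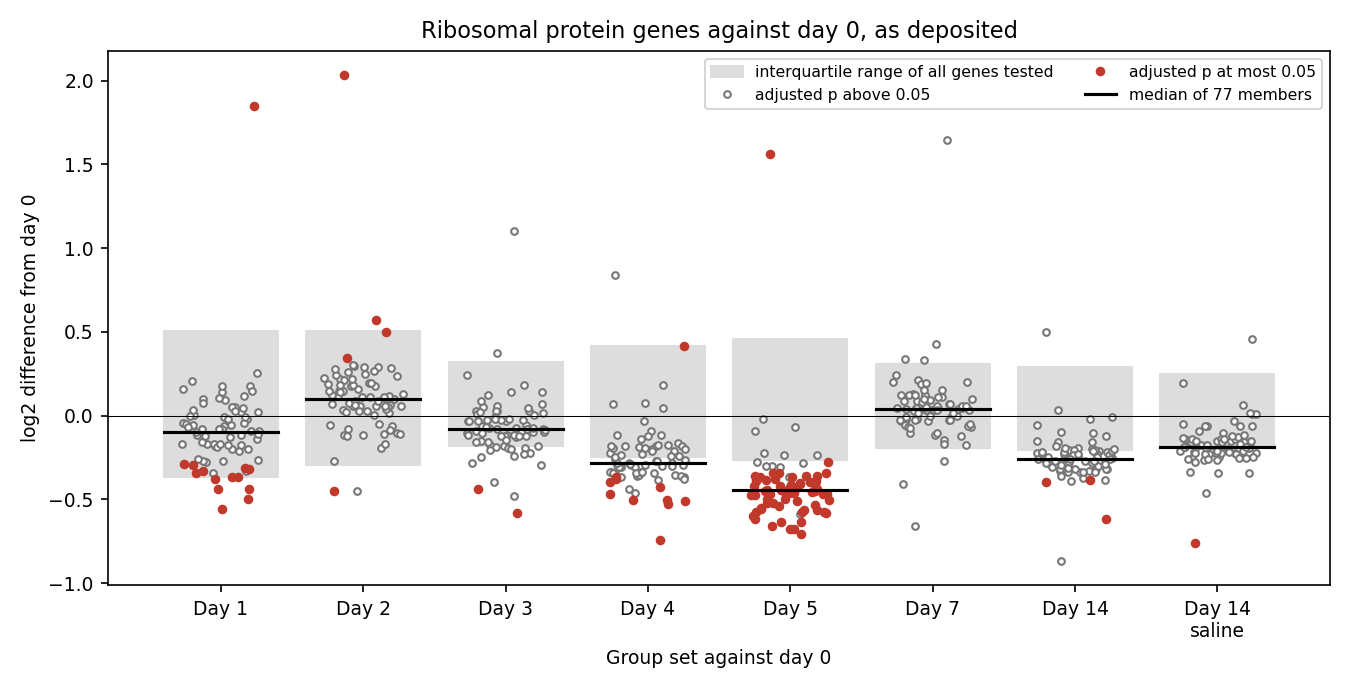
Log2 difference of each of the 77 members tested (points, red at adjusted p of at most 0.05) from day 0, relative to the median gene, for the 7 IL-1α groups and the saline group, with the median of the members (black bar) and the interquartile range of all genes tested (grey). On day 5 the members lie around -0.44 with 63 of them called lower, a direction that turns with scaling to library totals; the highest point on days 1, 2 and 5 is Rpl39l, from whose calls nothing is read.

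Day 5 was also lower than day 3 in 24 members and higher in 0, where 3.02% of all genes tested were lower and 4.3% higher, with a median of -0.36. This count depended on single libraries. It was 1 without day 3 replicate 1, whose members summed to 171820 against 139663 and 127921 in the other glands of that day, 49 without day 3 replicate 3, and 8, 9 and 5 without day 5 replicates 1, 2 and 3. Scaled to totals 2 members were lower, where 0.814% of all genes were. The largest of the differences were Rpl21 (-0.55), Rpl3 (-0.54) and Rpl32 (-0.51). For Rpl21 68.2% of the value lay in copies, and for Rpl3 63.7%. With copies Rpl21 had 1775, 1757 and 1666 units on day 5, against 2848, 2245 and 2121 on day 3. Rpl3 with copies had 2588, 2587 and 2380 units, against 4047, 3004 and 3075 on day 3. The salivary markers Bpifa2, Amy1, Dcpp1, Smgc and Mucl1 summed to between 55.7 and 1712000 units in the 3 libraries of day 3 and to between 314 and 188400 on day 5, and their part in this result was not tested.

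On a scale set by the members themselves, few members stood apart on day 5. Each library was rescaled so that the median member was level, using the 51 tested members with under 10% in copies, a scale chosen after the data had been seen. On this scale 3 members were lower on day 5 than on day 0 and 3 higher, where 0.56% and 39.1% of all genes were. The scale holds the median member near 0 by its making and puts the median of all genes at 0.44. These shares reflect that shift and are no yardstick for the members. Rps27l (-0.23), Rpl4 (-0.23) and Rpl32 (-0.22) were lower than the typical member. Rpl39l, Rpl10a (0.35) and Rplp2 (0.22) were higher, and 42.5% of the value of Rpl10a lay in copies.

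On day 1 the members did not move as 1 set. Of the 77 tested 13 fell and 1 rose (limma), where 20.4% of all genes tested fell and 22.1% rose, so the share of members that changed was below that of genes in general. The median member was at -0.10, with 56 below 0 and 21 above. Scaled to totals 77 were higher and 0 lower, where 83.5% of all genes were higher. With totals that leave out the 100 most abundant genes 5 were higher and 3 lower, where 26.7% and 15.9% of all genes were, and without day 0 replicate 1 the counts were 4 higher and 3 lower, so that neither direction of the set held. Leaving out day 1 replicate 2 or 3 gave 6 and 7 calls, and leaving out day 0 replicate 2 gave 22.

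The members that fell most on day 1 were 2 of the 3 proteins of the ribosomal stalk. The stalk is the flexible arm of the large subunit that recruits the elongation factors, and it is built of 1 protein P0 and of dimers of P1 and P2. Rplp1, the gene of P1, had 3145, 3015 and 2634 units on day 1, against 5104, 3888 and 4031 on day 0. Rplp0, the gene of P0, had 3195, 2760 and 2747 units, against 4905, 3765 and 3675 on day 0. All 3 glands of day 1 lay below every gland of day 0 in both genes. The differences were -0.56 ± 0.12 for Rplp1 and -0.50 ± 0.12 for Rplp0 (adjusted p = 0.000718 and 0.00196 by limma), and with copies added Rplp0 was at -0.52. Scaled to totals both were higher, by 0.62 and 0.69. Rplp2, the gene of P2, went the other way with 1193, 972 and 1002 units on day 1, against 1103, 865 and 840.3 on day 0. Its difference of 0.18 ± 0.11 did not pass the test (adjusted p = 0.202 by limma), but on the scale of the median member it was higher (0.27, adjusted p = 0.0139) while Rplp1 (-0.46) and Rplp0 (-0.40) were lower.

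A ratio within a library does not depend on scaling, and the ratio of Rplp1 to Rplp2 set these genes side by side. It was 2.79 ± 0.27 on day 1, against 4.64 ± 0.15 on day 0 (SD, n = 3 each), and the single values were 2.64, 3.10 and 2.63 on day 1, against 4.63, 4.50 and 4.80 on day 0. It was 3.48 ± 0.064 on day 2 (n = 2), 4.36 ± 0.34 on day 3, 4.17 ± 0.31 on day 5 and 4.27 ± 0.044 on day 14. After saline it was 4.00 ± 0.20 (3.81 to 4.21), so that the saline glands and those of day 14 and day 5 also lay below every gland of day 0 (4.50 to 4.80). The ratio of Rplp1 to Rplp0 stayed between 0.957 and 1.21 in the 23 libraries. These ratios were chosen after the values had been seen and were given no test.

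**Figure D4:**
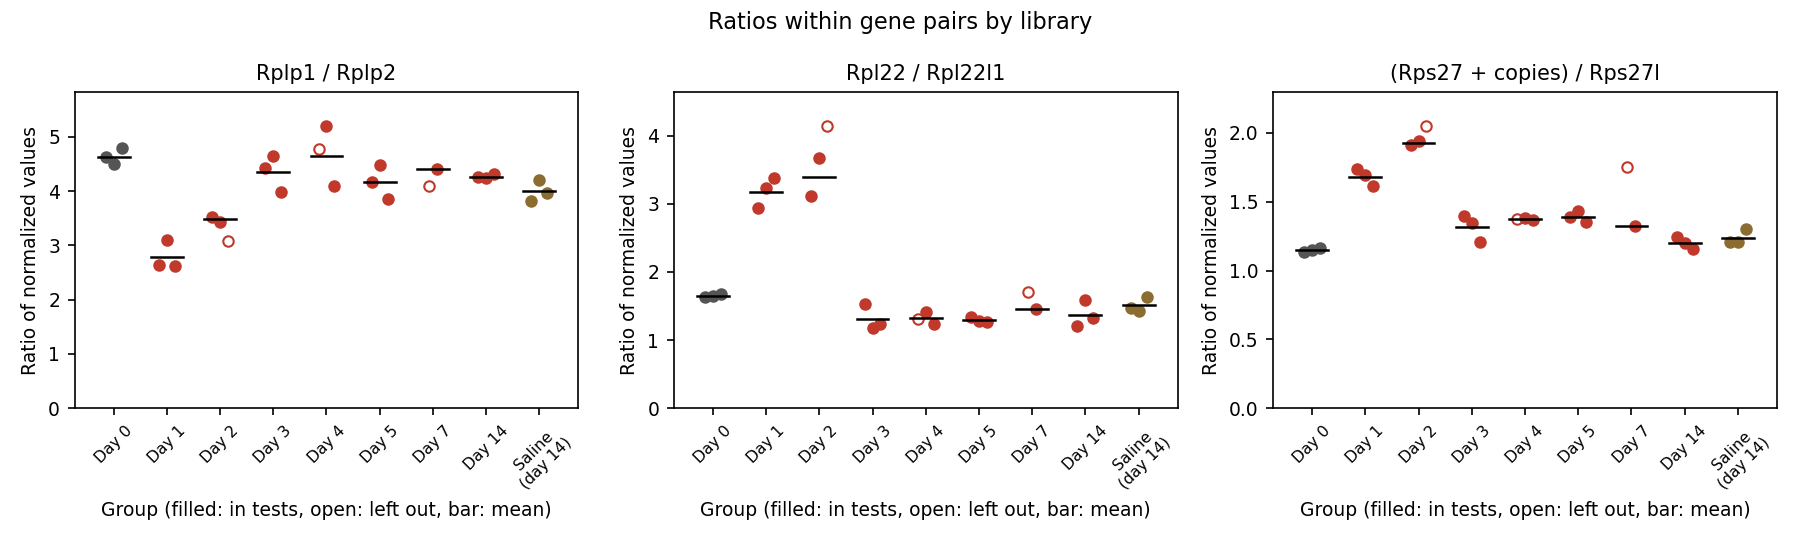
Ratio of normalized values within each library (points; open points are libraries left out of the tests, bars are means of the others) for Rplp1 to Rplp2 (left), Rpl22 to Rpl22l1 (middle) and Rps27 with its copies to Rps27l (right), by group. The means were 2.79 on day 1 against 4.64 on day 0 on the left, 3.18 against 1.65 in the middle and 1.68 against 1.15 on the right.

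Rps18, which touches the large subunit at the head of the small one, fell on day 1 as well, with 1018, 908 and 924 units against 1523, 1136 and 1229 on day 0 (-0.44 ± 0.11, adjusted p = 0.0034 by limma; -0.41 with copies). The other members that fell ran from -0.44 (Rpl5) to -0.29 (Rpl4) and included Rps7, Rps25, Rps24, Rps15, Rps21, Rps29 and Rps4x, so that 8 of the 13 were of the small subunit. For Rpl5 95.7% of the value lay in copies, and with them it did not pass the test. The 3 highest differences of day 1 were Rpl39l, Rpl12 (0.25) and Rpl24 (0.21). Rpl12 turned with its copies. It had 2895, 2508 and 2462 units with them on day 1, against 4098, 3319 and 3246 on day 0, which is -0.43 (adjusted p = 0.00336 by limma). Rpl24 had 1990, 1587 and 1838 units on day 1, against 1856, 1343 and 1509 on day 0, and these overlapped. On the scale of the median member 6 were higher and 11 lower on day 1, where 21.6% and 13.2% of all genes were. The higher ones were Rpl39l, Rpl24, Rplp2, Rps19, Rps9 and Rps6.

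On day 2 the median member was at 0.10 and 61 of 77 lay above 0, but with day 2 replicate 3 and the other unused libraries in the fit the median was 0.0022, where the median of all genes was 0.02. Of them 4 rose and 1 fell (limma), where 17.1% of all genes tested rose and 13.7% fell. Scaled to totals 76 were higher and 0 lower, where 77.8% of all genes were higher, and with totals that leave out the 100 most abundant genes 14 were higher and 1 lower, where 20.2% and 9.29% of all genes were. Without day 0 replicate 1 the counts were 20 higher and 1 lower, and without either library of day 2 they were 2 in all. Rps19, the small subunit protein mutated most often in Diamond-Blackfan anaemia in humans, had 2183 and 2441 units on day 2, against 1942, 1439 and 1555 on day 0 (0.50 ± 0.14, adjusted p = 0.0102 by limma). Rps9 had 2788 and 2896 units, against 2546, 2044 and 2150 on day 0 (0.34 ± 0.11, adjusted p = 0.0241 by limma). Both of these glands of day 2 were above every gland of day 0 in these genes. Day 2 replicate 3, outside the tests, was not, with 1941 units of Rps19 and 2531 of Rps9. Rpl12 was listed at 0.57, and with its copies at -0.21 (adjusted p = 0.207 by limma). Rps27l fell, with 1176 and 1285 units on day 2, against 2113, 1462 and 1529 on day 0 (-0.45 ± 0.13, adjusted p = 0.0117 by limma), and was at -0.28 without day 0 replicate 1 (adjusted p = 0.061). The other low values, of Rpl27 (-0.45) and Rpl5 (-0.27), became 0.09 and 0.06 with their copies.

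Day 2 set against day 1 gave 0 members at an adjusted p of at most 0.05 (limma), where 5.04% of all genes tested were higher and 2.95% lower. At an unadjusted p under 0.05 there were 17. Of the 77 members 75 were higher on day 2, with a median of 0.23, where the median of all genes was 0.02. Scaled to totals the median member turned to -0.05, where the median of all genes was -0.26. With all 26 libraries in the fit the median member was at 0.12. Fitted on days 1 and 2 alone 9 members were higher. The share of all genes is not given for the 17 or the 9, so nothing is read from these counts. Day 3 set against day 2 gave 3 lower members and 0 higher, where 9.37% of all genes were lower and 6.13% higher. These were Rpl22 (-0.59, adjusted p = 0.014), Rpl28 (-0.45, adjusted p = 0.0154) and Rps19 (-0.43, adjusted p = 0.0429, all by limma), and the median was -0.19. Without day 3 replicate 1 there were 19, and without either library of day 2 or day 3 replicate 3 there were 0. Scaled to totals 31 were lower, where 13.2% of all genes were. Rps27 with its copies was also lower on day 3 than on day 2 (-0.54, adjusted p = 0.0117 by limma).

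Day 3 itself differed little from day 0. Of the 77 members 2 fell and 0 rose (limma), where 3.88% of all genes fell and 5.4% rose, and the median was -0.08. The 2 were Rpl27 (-0.58) and Rps27l (-0.44), and with copies Rpl27 did not pass. Scaled to totals 74 were higher, where 74% of all genes were. Leaving out a library gave 0 to 4 calls, with 0 without day 3 replicate 2 or 3. On day 4 10 members fell and 1 rose, where 8.31% and 10.2% of all genes did, with a median of -0.29, and scaled to totals 68 were higher and 0 lower, where 71% of all genes were higher. Rpl4 (-0.51), Rpl32 (-0.47) and Rps27l (-0.53) were among the 10. The 1 that rose was Rpl12 (0.42), which with its copies was at -0.20 (adjusted p = 0.289 by limma). Leaving out a library gave 1 to 21 calls for day 4, with 21 without day 0 replicate 2 and 1 without day 4 replicate 2.

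By day 7 and day 14 few members could be called. The single library of day 7 gave 0 calls (limma), where 0.116% of all genes tested were higher and 0.0945% lower, with 4 members at an unadjusted p under 0.05 and a median of 0.04. With day 7 replicate 1 and the other unused libraries in the fit the median turned to -0.14. On day 14 3 members fell and 0 rose, where 3.43% of all genes fell and 3.5% rose. At an unadjusted p under 0.05 there were 40 on day 14 and 13 in the saline glands. In these groups 75 and 71 of the 77 members lay below 0, where the median of all genes was 0.01 in both. The share of all genes at an unadjusted p is not given for any group here, so nothing is read from those counts. The 3 members called on day 14 were Rpl27 (-0.62), Rps21 (-0.40) and Rps15 (-0.38), and scaled to totals there were 0. Rps21 and Rps15 stayed called with copies added and Rpl27 did not. The median member was at -0.26 on day 14 and at -0.19 in the saline glands, where 1 member (Rpl27) fell and 0 rose, and 1.84% of all genes fell and 2.06% rose. Day 14 after IL-1α set against day 14 after saline gave 0 calls (limma), as it did over all genes (0%), with 1 member at an unadjusted p under 0.05 and a median of -0.07. All comparisons with day 0 share its 3 libraries, and the count for day 14 was 1 without day 0 replicate 1, 8 without day 0 replicate 2, and 0, 1 and 1 without day 14 replicates 1, 2 and 3.

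Several members and genes close to them form pairs of paralogs. Rpl39l, a paralog of Rpl39 known from male germ cells, was the 1 member past both an adjusted p of 0.05 and a 2-fold change, on days 1, 2 and 5, where 16.4%, 12.2% and 10.4% of all genes were. It is a gene of a few reads, and its values are a description. It had 10.8, 6.74 and 5.89 units on day 1, 11.4 and 6.67 on day 2 and 7.23, 8.56 and 3.44 on day 5, against 1.76, 1.14 and 1.30 on day 0, which were the values of 1 read each. The differences were 1.85 on day 1, 2.03 on day 2 and 1.56 on day 5. It passed the filter through day 1 replicate 1 and day 2 replicate 1 alone, so that it had to be higher there, and without either of them it was not tested. Its partner Rpl39 had 1207, 949 and 1063 units on day 1, against 1518, 1025 and 1019 on day 0.

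Rpl22l1, the paralog of Rpl22, fell on days 1 and 2 relative to the median gene. In mice the Rpl22 protein is known to lower the mRNA of Rpl22l1, and either protein can sit in the ribosome. Rpl22l1 had 441, 336 and 343 units on day 1, 413 and 372 on day 2 and 544, 598 and 572 on day 5, against 882, 558 and 573 on day 0. The differences were -0.82 ± 0.15 on day 1 and -0.74 ± 0.16 on day 2 (adjusted p = 0.000109 and 0.00166 by limma), and -0.20 on day 5 (adjusted p = 0.325). Rpl22 had 1298, 1085 and 1157 units on day 1, against 1444, 917 and 962 on day 0, where the groups overlapped (0.12, adjusted p = 0.531 by limma). On day 5 Rpl22 fell, with 730.0, 763 and 726 units against those of day 0 (-0.55, adjusted p = 0.00621 by limma; 0.24 with adjusted p = 0.0896 scaled to totals). The ratio of Rpl22 to Rpl22l1 was thus 3.18 ± 0.22 on day 1 and 3.39 ± 0.39 on day 2 (n = 2), against 1.65 ± 0.021 on day 0, and 1.31 ± 0.19 on day 3, 1.29 ± 0.041 on day 5, 1.37 ± 0.19 on day 14 and 1.51 ± 0.11 after saline. No gland of day 1 or 2 overlapped with a gland of any other group, and day 2 replicate 3, which was left out of the tests, had 4.14. Between day 3 and day 2 Rpl22 was lower and Rpl22l1 higher (0.79, adjusted p = 0.00232 by limma).

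The ratio of Rps27 to Rps27l was also higher on days 1 and 2 than on day 0. With its copies Rps27 had 2636, 2219 and 2231 units on day 1 and 2248 and 2495 on day 2, against 2397, 1675 and 1782 on day 0, where both days overlapped with day 0. Its ratio to Rps27l was 1.68 ± 0.065 on day 1 and 1.93 ± 0.021 on day 2 (n = 2), against 1.15 ± 0.016 on day 0. It was 1.32 ± 0.099 on day 3, 1.38 ± 0.010 on day 4 (n = 2), 1.39 ± 0.039 on day 5, 1.16 to 1.24 on day 14 and 1.24 ± 0.053 after saline. Every gland of days 1 to 5 lay above the 3 glands of day 0, and so did that of day 7 (1.32) and the saline glands (1.21 to 1.30), which overlapped with day 3 (1.21 to 1.40).

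Rpl36al is a second gene for a protein almost the same as that of Rpl36a. It had 1352, 1195 and 1253 units on day 1, against 2422, 1605 and 1688 on day 0, and Rpl36a had 874, 757 and 826 units on day 1, against 1012, 818 and 784 on day 0. The groups did not overlap in Rpl36al and overlapped in Rpl36a. Rpl36al fell on days 1, 2, 3, 4, 5 and 14 (-0.57, -0.54, -0.45, -0.62, -0.73 and -0.41), and the ratio of Rpl36a to Rpl36al was 0.647 ± 0.013 on day 1 and 0.746 ± 0.015 on day 2 (n = 2), against 0.464 ± 0.046 on day 0. Rpl7l1, a paralog of Rpl7 that works in ribosome assembly, had 369, 333 and 307 units on day 1, against 468, 404 and 394 on day 0, and Rpl7 had 4233, 3914 and 4013 units on day 1, against 5718, 4228 and 4149 on day 0. Rpl7l1 was at -0.33 on day 1 (adjusted p = 0.0312 by limma), and the ratios of Rpl7 to it overlapped between day 1 (11.5 to 13.1) and day 0 (10.5 to 12.2).

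Rpl3l, the paralog of Rpl3 in heart and skeletal muscle, had its highest values on day 2. It had 8.57 and 13.3 units in the tested glands of day 2 and 23.5 in day 2 replicate 3, against 1.76, 0 and 1.30 on day 0. It was at 0 in all 3 libraries of day 3. Day 14 replicate 3 had 7.48 units, and day 14 replicates 1 and 2 had 1.34 and 0. Rpl3 had 1100 and 1132 units on day 2, against 1183, 959 and 1043 on day 0. Of the value of Rpl3 63.7% lay in copies. With them it had 3106 and 3195 units on day 2, against 3813, 2893 and 3037 on day 0. The 4 skeletal muscle markers (Acta1, Ckm, Myh4 and Ttn) summed to 1762 to 7665 units over the 3 libraries of day 2, against 11.7 to 448 on day 0. On day 14 these markers summed to 53.3 to 1763 units, and their part in the value of Rpl3l was not tested. Of the other pairs, Rpl10 had 1504, 1246 and 1376 units on day 1, against 1681, 1133 and 1004 on day 0, while its paralog Rpl10l was at 0. Of the value of Rpl10 82.1% lay in copies. With them Rpl10 had 8025, 6845 and 7026 units on day 1, against 9613, 7145 and 7559 on day 0.

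Some further genes of ribosomal proteins lie outside the symbol rule. Among them Rpl36al (-0.73), Fau (-0.64), which encodes a small subunit protein fused to a ubiquitin-like one, Rps3a1 (-0.52) and Rack1 (-0.43), a scaffold protein on the head of the small subunit, fell on day 5 relative to the median gene, where 12.9% of all genes did. They were named after their values were seen, and scaled to totals none of them was lower.

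Elongation factors and other genes whose mRNAs carry a TOP element were taken as a list of 17. All counts of lists are relative to the median gene and stand beside 20.4% of all genes that fell and 22.1% that rose on day 1, 13.7% and 17.1% on day 2 and 12.9% and 15.9% on day 5. Of the 17, 11 fell and 1 rose on day 5, with a median of -0.47, among them Eif3h (-0.66), Naca (-0.64), Eef2 (-0.62, which moves the ribosome along the mRNA) and Pabpc1 (-0.58). Vim, the gene of vimentin, rose (1.74). On day 1 7 rose and 3 fell, with Vim (1.90), Hnrnpa1 (0.97), Npm1 (0.89) and Btf3 (0.50) the highest and Pabpc1 (-0.60) the lowest, and the median was 0.16. On day 2 4 rose and 1 fell.

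Genes that build ribosomes make, cut and fold ribosomal RNA and join it to the proteins. Of 49 ribosome biogenesis genes 21 fell and 4 rose on day 1 (median -0.28), 19 fell and 2 rose on day 2 (median -0.27), and 3 fell and 0 rose on day 5. Nolc1 (-0.88), Wdr75 (-0.83), Noc3l (-0.82) and Nop16 (-0.78) fell most on day 1, and Taf1d, a subunit of the factor that starts RNA polymerase I, rose most (1.48). On day 14 10 of them fell, Bysl (-0.75) the most, and after saline 4 fell, where 3.43% and 1.84% of all genes did. Of 40 initiation factors 16 fell and 6 rose on day 1, 16 fell and 2 rose on day 2, and 21 fell and 0 rose on day 5. Eif5 (-0.86), Eif2b3 (-0.85), Eif5b (-0.83) and Eif2s2 (-0.72) were the lowest on day 1 and Eif4e3 (1.09) the highest. Of 8 genes that host small nucleolar RNAs in their introns 4 rose and 0 fell on day 1, Zfas1 (2.59), Epb41l4aos (2.21), Snhg12 (1.28) and Gas5 (0.71), and the same 4 rose on day 2. Several such hosts are known to carry TOP elements. Of 77 mitochondrial ribosomal protein genes, whose products work in another ribosome, 12 fell and 3 rose on day 1, 22 fell and 0 rose on day 2 and 20 fell and 0 rose on day 5, with Mrpl53 (-0.68) the lowest on day 5, and on day 1 both of these shares were below those of all genes. Scaled to totals these lists turned with the whole table. On day 1 all 17 TOP genes, 46 of the 49 biogenesis genes, all 40 initiation factors and 75 of the 77 mitochondrial members were higher, and on day 5 12, 49, 32 and 60 were, with 0 lower in each list on either day.

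**Figure D5:**
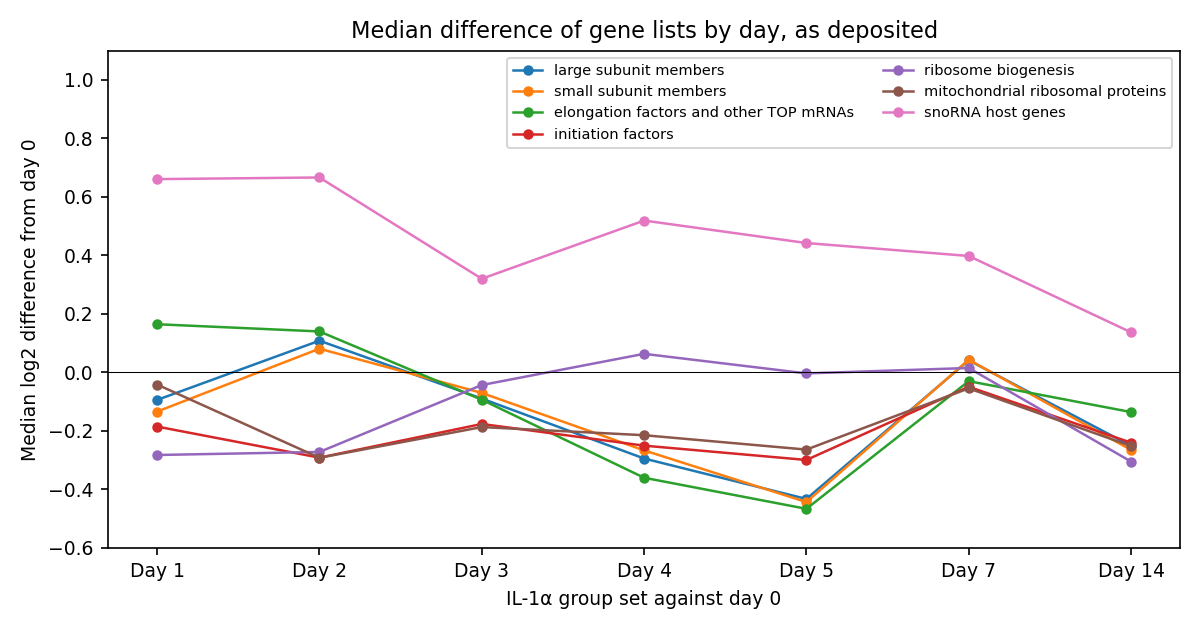
Median log2 difference from day 0, relative to the median gene, of the members of each subunit and of 5 other gene lists (lines), for the 7 IL-1α groups (horizontal axis). The lines of the 2 subunits run together, reach -0.43 and -0.44 on day 5, and lie below the line of ribosome biogenesis genes on that day and above it on day 1 (-0.09 and -0.13 against -0.28); with scaling to library totals all lines move up with the median gene.

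The makeup of the tissue moved with the days, and the part of this in the results above was not tested. Sums are given over all libraries with values. The lacrimal acinar markers Aqp5, Scgb2b20, Pnliprp1, Esp36, Bhlha15 and Car6 summed to 12190 to 16820 units on day 1, 21960 to 39780 on day 2 and 46830 to 51350 on day 5, against 142500 to 164400 on day 0, and none of the 6 was at 0. The 6 neutrophil markers summed to 1879 to 2392 on day 1 and 43.7 to 203 on day 5, against 1.76 to 6.50 on day 0, where Mmp8 and Retnlg were at 0. The 6 monocyte and macrophage markers summed to 2538 to 3716 on day 1, 5905 to 7667 on day 2 and 2234 to 3733 on day 5, against 678 to 1197 on day 0. The 4 fibroblast markers summed to 3454 to 3949 on day 1 and 13780 to 20430 on day 5, against 3421 to 4129 on day 0. The 4 plasma cell markers summed to 7968 to 8876 on day 1 and 5538 to 6084 on day 5, against 6478 to 8576 on day 0. The 3 of these that were tested had a median log2 difference of -0.61 on day 1 and -0.41 on day 5. On day 1 the sum thus did not follow the median marker.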

How the data were processed

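RNA of 27 whole lacrimal glands was sequenced as stranded mRNA libraries. The authors aligned the reads to the mouse genome (mm10) with STAR, estimated counts per gene with RSEM and used DESeq2 for their tests. That its size factors made the deposited values was read from the values, whose median ratio to the mean library is near 1 throughout. Versions are not given in the sources used here. The deposited values are a signal, the estimated count divided by 1 factor per library, and were not turned back into counts.

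Log2 of value + 1 was fitted with limma (version 3.58.1, R 4.3.3): 1 coefficient for each group, moderated variances with a trend, 14 residual degrees of freedom. The 13762 genes tested reached 10 in 2 or more of 23 libraries, and p-values were adjusted over them by Benjamini-Hochberg within each comparison. An adjusted p up to 0.05 counted as a call, with a 2-fold change as a second rule. The lone library of day 7 is assumed to vary like the other groups. Each library is 1 mouse by the labels, and p-values measure the spread between these mice. edgeR, planned for counts only, was not used. Gene names are from GENCODE M21 (GRCm38), in which 42462 of 43346 identifiers were found, and the release used by the authors may differ. Copies were found with blastn among its transcripts, for members only. The fit was tested on simulated data.

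The members, gene lists and tests were chosen with earlier results of these data known. By rule, the text gives values for the 3 members of each subunit with the highest level per kilobase on day 0, the 3 highest and 3 lowest differences of days 1, 2 and 5, members past both rules and paralog pairs, and names up to 4 genes of another list with the largest change and 1 of the opposite direction. Other members and the ratios were chosen after their values were seen. Alternatives were all libraries, a pseudocount of 0.1, no filter, 3 other scalings, only the 2 groups compared, a block for mouse number and leaving out each library. Added after seeing the data were copies summed with their member and a scale set by the members.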

Additional observations from a re-analysis of the deposited data

Results flagged for a closer look

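Some members differed between injured days, by the test of the difference itself. On day 5 24 of 77 members were lower than on day 3, where 3.02% of all genes were, a count that ran from 1 to 49 when single libraries were left out. On day 3 3 members, Rpl22, Rpl28 and Rps19, were lower than on day 2, a smaller share than the 9.37% of all genes, with 0 to 19 when single libraries were left out. In libraries outside the tests, Rpl3l had 23.5 units in day 2 replicate 3 and 3.59 units in day 7 replicate 1, above the highest value of day 0 (1.76), and these were not tested. No group had enough libraries to look for single outlying values.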

How the results depend on the processing

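Members called are given in 1 order, for days 1 to 5, day 7, day 14 and saline against day 0, day 14 against saline, and days 2 against 1, 3 against 2 and 5 against 3. As reported they were 14, 5, 2, 11, 64, 0, 3, 1, 0, 0, 3 and 24. They were 1, 1, 0, 0, 1, 0, 0, 0, 0, 0, 0 and 0 with a 2-fold change asked for as well, 7, 7, 1, 1, 54, 1, 1, 1, 0, 1, 3 and 5 with all 26 libraries, 14, 5, 2, 9, 64, 0, 3, 1, 0, 0, 3 and 23 with a pseudocount of 0.1, 7, 6, 0, 6, 55, 0, 0, 1, 0, 1, 3 and 5 with no filter on low values, 5, 2, 0, 1, 53, 0, 0, 0, 0, 9, 0 and 1 with the 2 groups alone, 18, 4, 2, 17, 71, 0, 5, 0, 0, 0, 4 and 30 with copies added and 17, 6, 1, 1, 6, 0, 0, 0, 0, 1, 4 and 0 on the scale of the median member. They were 77, 76, 74, 68, 59, 0, 0, 0, 0, 1, 31 and 2 scaled to totals, 8, 15, 3, 6, 44, 0, 0, 1, 0, 2, 12 and 8 scaled to totals without the 100 most abundant genes and 12, 5, 2, 6, 53, 0, 2, 1, 0, 2, 4 and 12 scaled to upper quartiles. Leaving out single libraries gave 6 to 22, 2 to 21, 0 to 4, 1 to 21, 33 to 64, 0 to 0, 0 to 8, 0 to 2, 0 to 0, 0 to 0, 0 to 19, 1 to 49. The share of all genes is not given for most of these settings or for the fits without single libraries. These counts show only how far the calls moved, and the cause of these shifts was not tested.

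With the mouse number as a replicate block the counts were 19, 5, 2, 8, 67, 0, 11, 2, 0, 1, 4 and 50. In 70 pairs of libraries with the same number in 2 groups, correlations of deviations ran from -0.341 to 0.299. Of these 13 were over 0.1. The summed value of the members was highest in replicate 1 on days 0, 1, 3, 4, 5 and 14 and after saline. It was not on days 2 and 7. What the mouse number stands for was not tested.

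Single members changed sign with scaling to totals: on day 1 Rps18 (0.75), Rplp0 (0.69), Rplp1 (0.62) and Rps24 (0.82), on day 2 Rpl5 (0.63), Rpl27 (0.45) and Rps27l (0.45), and on day 5 Rps2 (0.75), Rpl12 (0.72), Rpl4 (0.12), Rps27l (0.12) and Rpl27 (0.084). With copies added Rpl12 turned on day 1 (-0.43) and day 2 (-0.21), Rpl5 (0.063) and Rpl27 (0.086) on day 2 and Rps2 on day 5 (0.10). On day 5 Rps2 turned without the 100 most abundant genes in the totals (0.11), with upper quartiles (0.041), and ran from -0.31 to 0.20 without single libraries, and Rpl12 without the 100 genes in the totals (0.057) and ran from -0.14 to 0.022 without single libraries.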

Other observations

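Genes that regulate the translation of TOP mRNAs or rescue stalled ribosomes were counted beside all genes, of which 20.4% fell and 22.1% rose on day 1 and 12.9% fell and 15.9% rose on day 5. Of 21 TOP and mTORC1 regulators tested 8 fell and 4 rose on day 1, relative to the median gene, and 6 fell and 1 rose on day 5. The lowest on day 1 were Deptor (-1.27) and Ddit4 (-1.05), both inhibitors of mTORC1, Eif4ebp1 (-0.85), an inhibitor of cap-dependent translation, and Rps6kb1 (-0.67), which encodes the S6 kinase, and the highest was Sesn2 (1.49), another inhibitor of mTORC1. Ddit4 stayed low on day 5 (-1.04). Of 13 genes of ribosome quality control and hibernation 6 fell and 1 rose on day 1, with Abce1 (which recycles ribosomes; 495, 523 and 524 units on day 1, against 1086, 1000 and 996 on day 0), Ltn1 (-0.90, a ubiquitin ligase for stalled chains), Hbs1l (-0.75) and Eef2k (-0.58) the lowest and Map3k20 (1.01, a kinase that senses ribosome collisions) the highest, and 7 fell on day 5. Of 7 genes of the Myc family 2 rose and 2 fell on day 1, Mxd1 (1.36), Mnt (0.60), Mxd4 (-0.58) and Mlx (-0.80), near the shares of all genes. Scaled to totals 18 of the 21 regulators, 12 of the 13 quality control genes and 7 of the 7 Myc genes were higher on day 1, as the median gene was.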
